A study of Mus musculus with 8 samples.

Results

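The proteasome genes are the probe sets whose platform annotation gives 1 gene symbol beginning with Psm, then a letter between a and g, then a number. This pattern took 103 of the 45037 probe sets on the array and 49 of 18193 genes. Of these, 92 probe sets and 47 genes passed the filter on dim probe sets (mean log2 signal of at least 5.67, a signal of 51.0) and were tested with the 12223 genes that passed it. The genes that did not pass were Psma8, an alpha subunit of the meiotic proteasome, at 32 to 53.6 across the 8 arrays, and Psmb11, the beta subunit of cortical thymic epithelium, at the floor of 32 on every array. Psme2, the beta subunit of the interferon-inducible activator, is read by a probe set that is shared with Psme2b, so it is no member and is not reported here. A check of the members against gene names set 2 apart from the proteasome genes: Psmc3ip encodes a partner of meiotic recombinases and Psme3ip1 an interactor of the activator subunit Psme3. The remaining 45 tested genes encode subunits, regulators or assembly factors of the proteasome.

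RNA was measured on mouse Affymetrix expression arrays in 4 groups of 2 arrays, all from mice with a GFP reporter for AID, the deaminase that starts class switching and hypermutation. The groups were BCR-ABL1 bone marrow (BM) cells positive for GFP, BCR-ABL1 bone marrow cells negative for GFP, splenic B cells positive for GFP and splenic B cells negative for GFP. BCR-ABL1 is a fusion tyrosine kinase of human leukaemias, and the splenic cells had been stimulated with LPS, a bacterial lipopolysaccharide, and the cytokine IL-4. Strain, age and sex of the mice, the way BCR-ABL1 was introduced, the time in culture, how the GFP fractions were separated and the origin of the 2 arrays of a group, in 1 or several mice or cultures, are not stated in the labels. The p-values therefore measure the spread between these arrays, which may be technical. The question of the study's design, set in its labels, was which transcripts differ between reporter-positive and reporter-negative cells.

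The proteasome is the protease that degrades ubiquitin-tagged proteins in cytosol and nucleus. Its barrel-shaped core is built of rings of alpha subunits, which form the gate, and rings of beta subunits, some of which cut the substrate. A cap of ATPases and non-ATPase subunits binds, deubiquitinates, unfolds and threads the substrate into the core. In lymphocytes and after interferon, Psmb8, Psmb9 and Psmb10 take the places of the constitutive catalytic subunits Psmb5, Psmb6 and Psmb7, which forms the immunoproteasome, a source of peptides for MHC class I.

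The spleen GFP-negative arrays stood apart from the other 6. On the deposited scale their 2% trimmed mean signal averaged 487, against 590.0 to 593 in the other 3 groups. The ratio of 3′ to 5′ probe sets, a sign of RNA integrity, averaged 1.91 for Gapdh and 1.51 for Actb in the spleen GFP-negative arrays, against 1.43 to 1.47 and 1.29 to 1.35 in the other groups. The summed signal of 12 measured myeloid markers was 582 to 588 in spleen GFP-positive arrays and 82233 to 84240.1 in spleen GFP-negative arrays, where 11 of the 12 lay above 51.0 in both arrays; in spleen GFP-positive arrays Camp, Csf1r, Elane, Itgam and Ngp were at the floor. For 11 T and NK cell markers the sums were 948 to 970 in spleen GFP-positive arrays and 15283 to 17156 in spleen GFP-negative arrays. Cd247 went the other way (126 and 130 in spleen GFP-positive, against 53.8 and 52.8 in spleen GFP-negative arrays), and Ncr1 was at the floor on all arrays. The 9 measured B cell markers summed to 47763 to 48876 in spleen GFP-positive arrays, 62460 to 62589 in spleen GFP-negative arrays and 38872 to 39437 in the BCR-ABL1 arrays. Against this sum, Pax5 (172 and 187, against 83.8 and 55.6) and Cd22 (6704 and 5555, against 4905 and 4716) were higher in spleen GFP-positive than in spleen GFP-negative arrays. The mature B cell marker Ms4a1 was at 32 and 45.4 in BCR-ABL1 GFP-positive arrays and at 443 and 576 in BCR-ABL1 GFP-negative arrays. Cd22, Cd72 and Cd79a were also lower in the BCR-ABL1 GFP-positive arrays, and Cd79b and Ebf1 overlapped. Pax5 (285 and 307, against 183 and 187), Ly6d (6758 and 7086, against 5240 and 5592) and Blnk (7318 and 7132, against 6794 and 6788) were higher. The myeloid sum in BCR-ABL1 arrays was 858 to 1116. In such bulk samples, fewer cells of a type and less RNA per cell cannot be told apart.

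No proteasome gene passed the test between GFP-positive and GFP-negative BCR-ABL1 cells. In the limma fit over all genes, 0 of 47 passed a Benjamini-Hochberg adjusted p of 0.05, and the lowest adjusted p was 0.216, for Psmb4, which was the 1 gene with an unadjusted p under 0.05. The same comparison called 5.37% of all genes tested (656 of 12223), and 1.38% at 2-fold or more, where the proteasome count was 0 as well. The 47 log2 fold changes ran from −0.12 to 0.14 with a median of 0.0023, against a median of 0 over all genes, and the median standard error was 0.057. Psmb4, a noncatalytic beta subunit, had signals of 5892 and 6206 in BCR-ABL1 GFP-positive cells, against 5629 in both GFP-negative arrays, which stood at the same rank after normalization. Its log2 fold change of 0.10 ± 0.038 (SE) separated the groups by little more than the gap between the 2 GFP-positive arrays. Signals did not overlap between the groups, GFP-positive higher, for 9 of 47 genes, and GFP-positive lower for 7, against 27.4% and 24% of all genes tested. Over the 92 tested probe sets, 0 were called either, against 2.8% of all probe sets, with a lowest adjusted p of 0.0617 for 1 probe set of Psmd11. Under every processing alternative tried, the count of called proteasome genes in this comparison was 0.

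In splenic B cells, almost every proteasome gene was higher in the GFP-positive cells. Of the 47 genes, 44 rose, 2 fell and 1 did not pass (limma, adjusted p under 0.05), where 45.7% of all genes tested rose and 31.4% fell. The median log2 fold change was 0.57, against 0.18 over all genes, and 43 of the 47 genes lay above the median of all genes. Most of the changes were small: 7 genes were called at 2-fold or more, against 36.3% of all genes. The groups did not overlap for 46 genes, 44 higher and 2 lower in GFP-positive cells, where 49.9% of all genes were higher and 35.6% lower without overlap. The spleen GFP-negative arrays carry the myeloid and T cell markers and the lower trimmed means given above, and the part of these in the proteasome values was not tested. The scale moved the shift of all genes: its median was 0.39 on the deposited scale, 0.55 once all arrays had been shifted to a common median and 0.12 with equal trimmed means, and the proteasome median stayed 0.32 to 0.39 above it in all 4 scalings. On these scales the counts of proteasome genes higher and lower were 45 and 0, 47 and 0, and 39 and 1.

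**Figure D1:**
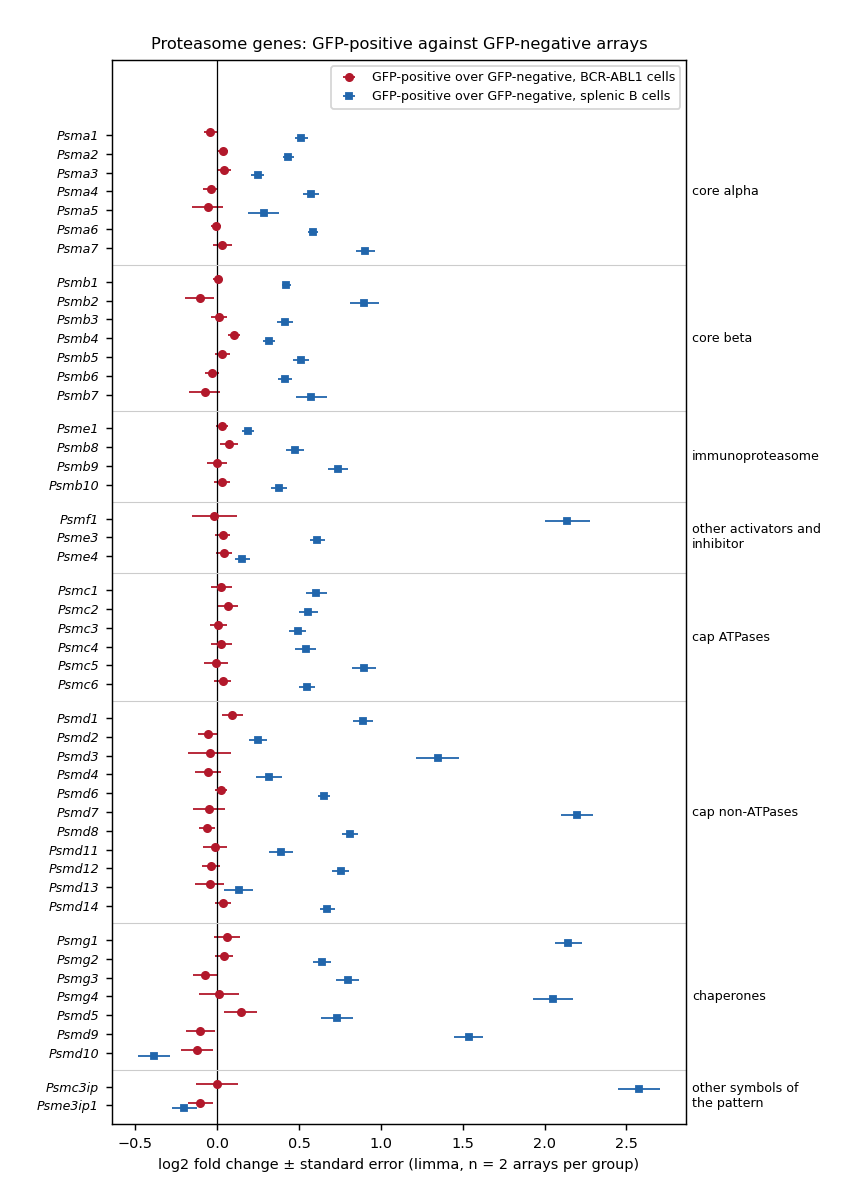
Log2 fold change, GFP-positive over GFP-negative, for each of the 47 tested genes (rows, grouped by role); circles are BCR-ABL1 cells, squares are splenic B cells, bars are the standard errors of the limma fit with 2 arrays per group. The BCR-ABL1 values lie between −0.12 and 0.14, while 44 of the splenic values were called above 0 and Psmd7, Psmg1, Psmf1, Psmg4 and Psmc3ip exceed 2.

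All 7 tested alpha subunits rose in GFP-positive splenic cells, with a median log2 fold change of 0.51 and a range of 0.25 to 0.90. Psma7 had signals of 8134 and 8738 in GFP-positive splenic cells, against 4342 and 4673 in GFP-negative splenic cells. Both GFP-positive arrays were far above both GFP-negative ones (1.87-fold, log2 0.90 ± 0.057, adjusted p = 1.5e-06). In BCR-ABL1 cells the same probe set read 7532 and 8015 in GFP-positive and 7373 and 7826 in GFP-negative arrays, so those groups overlapped. Psma6 read 10202 and 10457 in GFP-positive splenic cells and 6819 and 6942 in GFP-negative splenic cells, a difference of 0.59 ± 0.031. Psma3, at 7579 and 7808 in GFP-positive against 6416 and 6549 in GFP-negative splenic cells, had the smallest alpha change, 0.25 ± 0.041 (adjusted p = 0.00060), which turned to −0.44 when the mean of its probe sets was used. Psma5 rested on replicates that differ widely, 6978 and 6121 in GFP-positive against 5907 and 4881 in GFP-negative splenic cells (0.28 ± 0.095, adjusted p = 0.024). Its call was lost under 8 of 24 alternatives, among these without spleen GFP-positive replicate 1, without spleen GFP-negative replicate 2 and with the 4 spleen arrays normalized alone. Another Psma5 probe set was nearly as bright (mean signal 5121, against 5686). It read 6492 and 6643 in GFP-positive against 3658 and 3920 in GFP-negative splenic cells. Its change was 0.79 (adjusted p = 2.7e-06, limma fit of all tested probe sets).

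The 7 constitutive beta subunits also rose, by a median of 0.42 and a range of 0.32 to 0.90. Psmb5, the chymotrypsin-like site, had 6785 and 7106 in GFP-positive splenic cells, against 4759 and 4989 in GFP-negative splenic cells. The groups were well apart (1.43-fold, log2 0.51 ± 0.048, adjusted p = 1.7e-05), and the BCR-ABL1 arrays, at 6788 and 7210.0 with GFP and 6677 and 7006 without, overlapped with the spleen GFP-positive ones. Psmb6, the caspase-like site, read 9233 and 9860.4 in GFP-positive splenic cells and 7234 and 7066 in GFP-negative splenic cells (0.42 ± 0.042). Psmb7, the trypsin-like site, read 5902 and 5606 in GFP-positive splenic cells and 4131 and 3613 in GFP-negative splenic cells (0.57 ± 0.095). Changes of 0.42 ± 0.029 for Psmb1, 0.42 ± 0.049 for Psmb3 and 0.32 ± 0.038 for Psmb4, which are noncatalytic, were of like size on the chosen probe sets. Other, dimmer probe sets of Psmb1 gave 2.05 and 0.58. Psmb2 had the largest beta change, with 6377 and 7220.4 in GFP-positive against 3419.6 and 3871 in GFP-negative splenic cells (1.87-fold, 0.90 ± 0.088).

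The 4 immunoproteasome genes tested rose in GFP-positive splenic cells with a median log2 fold change of 0.43, which lies between those of the constitutive alpha and beta subunits. Psmb9, which replaces Psmb6, had 7526 and 8259 in GFP-positive splenic cells, against 4545 and 4909 in GFP-negative splenic cells. This was the largest immunoproteasome change (1.67-fold, log2 0.74 ± 0.062, adjusted p = 8.1e-06). In BCR-ABL1 cells Psmb9 read 4971 and 5191 with GFP and 4914 and 5252 without, just above the spleen GFP-negative arrays. Psmb8, which replaces Psmb5, had 8355 and 9346 in GFP-positive splenic cells and 6329.8 and 6379 in GFP-negative splenic cells (1.39-fold, 0.48 ± 0.054, adjusted p = 5.7e-05). Psmb10, which replaces Psmb7, had 6216 and 6529.5 in GFP-positive splenic cells and 4799.7 and 5009.5 in GFP-negative splenic cells (log2 0.38 ± 0.049, adjusted p = 0.00012). In every case both GFP-positive arrays lay above both GFP-negative ones, and the 2 arrays of a group differed by less than the groups did. Psme1, the alpha subunit of the interferon-inducible activator, changed least, with 10667 and 11337 in GFP-positive and 9549 and 9750.2 in GFP-negative splenic cells (1.14-fold, 0.19 ± 0.037, adjusted p = 0.0016), and its direction turned with equal trimmed means (−0.11).

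**Figure D2:**
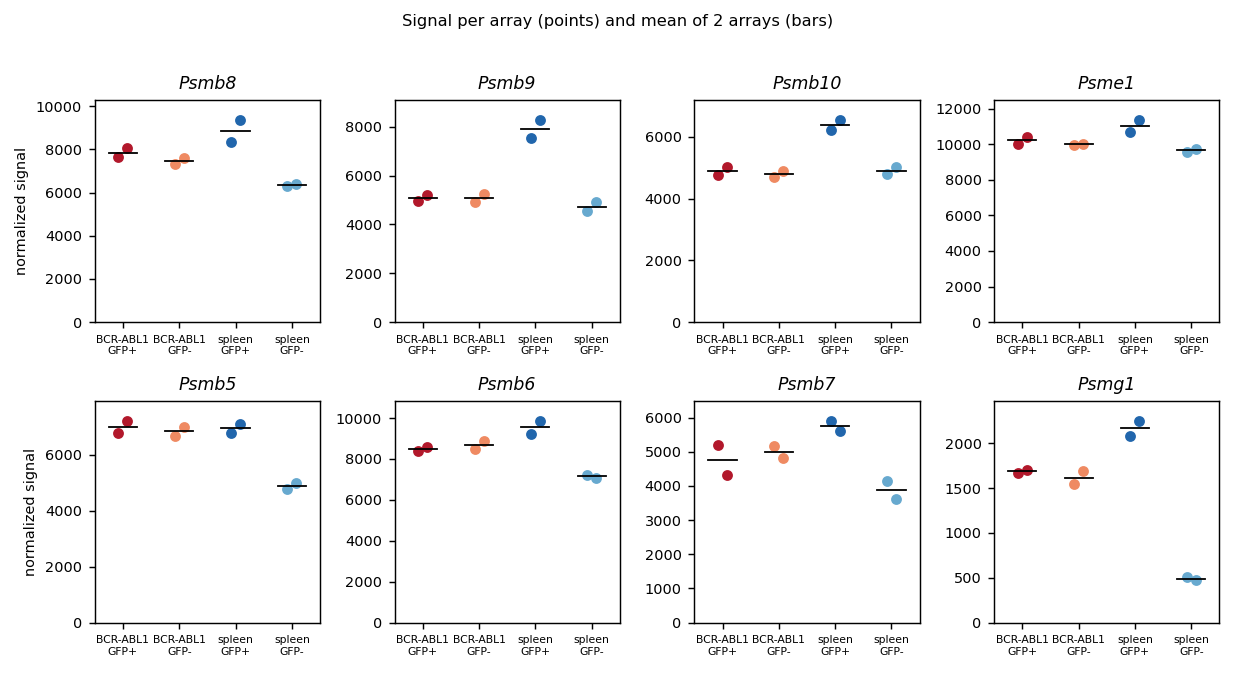
Normalized signal (linear scale, y axis) on each array for the 3 inducible catalytic subunits and Psme1 (top), their constitutive partners and the chaperone Psmg1 (bottom); points are single arrays, bars are means of 2 arrays, and the groups run from BCR-ABL1 GFP-positive at the left to spleen GFP-negative at the right. In each panel the spleen GFP-positive arrays lie above the spleen GFP-negative ones, and the 2 BCR-ABL1 groups differ little; Psmg1 stands at 2086 and 2251 against 508 and 473 in spleen.

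The exchange of subunits can be read as the log2 difference between an inducible subunit and its constitutive partner on the same array, whose change between groups, not its own size, has meaning. For Psmb9 minus Psmb6 it was −0.29 and −0.26 in GFP-positive splenic cells, against −0.67 and −0.53 in GFP-negative splenic cells. Relative to its partner, Psmb9 was thus 0.32 higher on the log2 scale in the GFP-positive splenic cells, with a pooled SD between arrays of 0.055. Psmb8 minus Psmb5 was 0.30 and 0.40 in GFP-positive and 0.41 and 0.35 in GFP-negative splenic cells, a difference of −0.035 that lies within its SD of 0.040. Psmb10 minus Psmb7 was 0.075 and 0.22 in GFP-positive and 0.22 and 0.47 in GFP-negative splenic cells, a difference of −0.20 with an SD of 0.17, and these groups overlapped. In BCR-ABL1 cells the 3 differences between GFP-positive and GFP-negative arrays were 0.038, 0.032 and 0.11 for the Psmb8, Psmb9 and Psmb10 pairs, each within its SD. No test was made of these differences.

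The promoters of these subunits are shown because inducible and constitutive partners both rose in the spleen, together with that of Psmg1, the chaperone gene with the largest change. No promoter was available for Psmb7, the partner of Psmb10. Each window spans 250 bases before to 50 after the start of the RefSeq transcript (GRCm38.p6) and reads 5′ to 3′ on the gene's own strand. Capitals mark a match to TTCNNNGAA (the gamma-interferon activation site core), TGACNNNGC (the antioxidant response element core) or CCAAT (the CCAAT box), on either strand.
Psmb8 (chr17:34197945-34198244, plus strand): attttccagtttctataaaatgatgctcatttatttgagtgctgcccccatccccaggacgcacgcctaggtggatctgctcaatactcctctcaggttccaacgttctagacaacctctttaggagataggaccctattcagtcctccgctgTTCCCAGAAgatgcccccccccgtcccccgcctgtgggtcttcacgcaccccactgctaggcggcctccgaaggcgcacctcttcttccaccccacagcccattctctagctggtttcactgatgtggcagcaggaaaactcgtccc
Psmb9 (chr17:34187281-34187580, minus strand): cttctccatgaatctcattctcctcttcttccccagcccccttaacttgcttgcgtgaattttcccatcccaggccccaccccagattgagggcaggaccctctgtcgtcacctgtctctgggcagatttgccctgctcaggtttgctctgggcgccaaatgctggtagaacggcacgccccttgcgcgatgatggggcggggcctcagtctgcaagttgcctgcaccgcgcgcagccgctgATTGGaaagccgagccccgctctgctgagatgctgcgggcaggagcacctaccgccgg
Psmb10 (chr8:105938343-105938642, minus strand): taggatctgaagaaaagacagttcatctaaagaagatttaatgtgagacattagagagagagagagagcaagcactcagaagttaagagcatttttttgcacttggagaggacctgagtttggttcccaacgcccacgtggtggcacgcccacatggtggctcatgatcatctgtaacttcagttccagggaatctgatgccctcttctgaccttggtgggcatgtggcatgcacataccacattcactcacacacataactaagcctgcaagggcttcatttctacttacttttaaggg
Psmb5 (chr14:54617946-54618245, minus strand): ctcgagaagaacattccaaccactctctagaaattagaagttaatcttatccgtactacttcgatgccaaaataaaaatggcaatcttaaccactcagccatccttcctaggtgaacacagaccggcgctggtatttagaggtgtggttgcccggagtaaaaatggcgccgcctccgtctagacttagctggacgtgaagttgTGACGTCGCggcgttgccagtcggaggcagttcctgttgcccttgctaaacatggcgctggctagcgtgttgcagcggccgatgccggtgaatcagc
Psmb6 (chr11:70525107-70525406, plus strand): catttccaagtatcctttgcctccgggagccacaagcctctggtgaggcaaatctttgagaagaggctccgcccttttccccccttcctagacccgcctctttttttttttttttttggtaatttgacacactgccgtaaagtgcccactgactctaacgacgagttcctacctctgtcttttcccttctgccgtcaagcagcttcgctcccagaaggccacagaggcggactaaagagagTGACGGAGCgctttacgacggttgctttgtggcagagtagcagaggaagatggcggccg
Psmg1 (chr16:95990911-95991210, minus strand): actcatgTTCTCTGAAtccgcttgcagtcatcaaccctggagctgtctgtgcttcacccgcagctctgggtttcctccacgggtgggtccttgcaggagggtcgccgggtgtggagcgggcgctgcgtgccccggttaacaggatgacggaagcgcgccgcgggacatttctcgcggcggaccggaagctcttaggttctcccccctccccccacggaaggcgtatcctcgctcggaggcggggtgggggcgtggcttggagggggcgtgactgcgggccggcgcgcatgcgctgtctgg
The capitals mark TTCNNNGAA in Psmb8 and Psmg1, TGACNNNGC in Psmb5 and Psmb6 and the reverse strand's CCAAT in Psmb9, and Psmb10 held none of the motifs searched. Of the 47 tested genes 40 had a promoter in the RefSeq table. TGACNNNGC was found in 6 of them (15.0%, against 12.4% of 32851 promoters), in Psmb5, Psmb6, Psmc6, Psmd12, Psmd9 and Psme4. TTCNNNGAA was found in 3 (7.5%, against 8.3%), CCAAT in 15 (37.5%, against 37.4%) and the core of the interferon-stimulated response element in 5 (12.5%, against 3.44%). Those 5 were Psmb3, Psmd4, Psmd9, Psme1 and Psmg4, none of them among the promoters shown. Their splenic changes ran from 0.19 for Psme1 to 2.05 for Psmg4. The member shares count genes, few in each case, while the others count all promoters, expressed or not. No test was made of these shares.

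All 6 ATPases of the cap rose in GFP-positive splenic cells, by a median of 0.55 and between 0.49 and 0.90. Psmc5 had 3665 and 3395 in GFP-positive splenic cells, against 1805 and 1990.4 in GFP-negative splenic cells, the largest change of the ring (1.86-fold, 0.90 ± 0.072, adjusted p = 6.2e-06). The other 5 ATPases lay between 0.49 and 0.61, with standard errors of 0.051 to 0.065. Psmc6 was among them at 0.55, but its other 2 tested probe sets, which are dimmer, gave 2.32 and 2.72, and the mean of its probe sets gave 1.86. Psmc2, for instance, read 4609 and 4791 in GFP-positive and 3022 and 3371 in GFP-negative splenic cells (0.56 ± 0.060). The ATPases form the ring that unfolds the substrate above the alpha gate.

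Among the 11 non-ATPase cap subunits 10 rose, with a median of 0.67. Psmd7, which pairs with the deubiquitinase Psmd14 in the lid, showed the largest change, with 1832 and 1907 in GFP-positive splenic cells, against 375.7 and 441.4 in GFP-negative splenic cells. That was 4.59-fold (log2 2.20 ± 0.097, adjusted p = 2.1e-07), while the BCR-ABL1 arrays read 1585 and 1562 with GFP and 1543 and 1724 without. Its partner Psmd14 read 8329 and 8687 in GFP-positive and 5303 and 5369.7 in GFP-negative splenic cells (1.59-fold, 0.67 ± 0.047). That was much less than the chosen Psmd7 probe set. The other tested probe sets of Psmd7 gave 0.059 and −0.26 and were not called, and the mean of its probe sets gave 0.67. Psmd3, another lid subunit, had 2300.4 and 2379 in GFP-positive against 1074 and 786.5 in GFP-negative splenic cells (2.55-fold, 1.35 ± 0.13). The base scaffolds Psmd1 (0.89 ± 0.063) and Psmd2 (0.25 ± 0.055) and the ubiquitin receptor Psmd4 (0.32 ± 0.078) rose as well. Psmd4 passed less firmly, since its adjusted p reached 0.66 among the alternatives and it was lost without spleen GFP-negative replicate 1. Psmd13 was the gene that did not pass, with 2763 and 3067 in GFP-positive and 2504 and 2822 in GFP-negative splenic cells, which overlapped (0.13 ± 0.090, adjusted p = 0.21).

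Among the 7 classes of proteasome genes the assembly chaperones had the largest median, 0.80, and they were the 1 class of proteasome genes in which directions differed. That median is the value of Psmg3, which depended on the probe set (below). Mean signals of the class, 961 to 2775, lay under those of the alpha (4915 to 9311) and constitutive beta subunits (4785 to 8781). The part of signal level in this ranking was not tested. Psmg1, which with Psmg2 guides assembly of the alpha ring, had 2086 and 2251 in GFP-positive splenic cells, against 507.7 and 472.6 in GFP-negative splenic cells (4.42-fold, 2.15 ± 0.080, adjusted p = 8.6e-08). Its binding partner Psmg2 read 3158 and 3100.5 in GFP-positive against 2086 and 1929 in GFP-negative splenic cells, a change of 0.64 ± 0.056. Other, dimmer probe sets of Psmg2 gave 3.81 and −0.67, so the gap between these partners depends on the probe set. In the second pair, Psmg4 had 1970.0 and 1921 in GFP-positive and 418 and 526.6 in GFP-negative splenic cells (4.15-fold, 2.05 ± 0.12). Its partner Psmg3 changed by 0.80 ± 0.072 on the chosen probe set, and its direction turned with the mean of its probe sets (−0.96). Psmd9, a chaperone of the cap's base, read 1499.6 and 1728 in GFP-positive and 550.8 and 559.1 in GFP-negative splenic cells (2.90-fold, 1.54 ± 0.090), but the mean of its probe sets gave 0.098 and no call (adjusted p = 0.36). Psmd5, another base chaperone, rose by 0.73 ± 0.10. Psmd10, the base chaperone known as gankyrin, went the other way, with 817.4 and 860.7 in GFP-positive and 1005 and 1199 in GFP-negative splenic cells (−0.39 ± 0.097, adjusted p = 0.0061), but its direction turned on the deposited scale (0.12) and after the median shift (0.27).

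The activators and the inhibitor of the core rose too. Psmf1, an inhibitor of the isolated core, had 1098 and 1227 in GFP-positive splenic cells, against 303.7 and 228.4 in GFP-negative splenic cells (4.41-fold, 2.14 ± 0.14, adjusted p = 1.7e-06). The nuclear activator Psme3 read 4309.7 and 4189 in GFP-positive and 2852 and 2711 in GFP-negative splenic cells (1.53-fold, 0.61 ± 0.046). Psme4, a single-chain nuclear activator, changed little, with 3351 and 3434 in GFP-positive and 3092 and 3004 in GFP-negative splenic cells (0.15 ± 0.047, adjusted p = 0.016), its call was lost without spleen GFP-positive replicate 2, and the mean of its probe sets gave −0.20. Among the genes that share the name but not the complex, Psmc3ip had 2071 and 2157 in GFP-positive and 305.2 and 410.3 in GFP-negative splenic cells (5.97-fold, 2.58 ± 0.13). Psme3ip1 was lower, with 1505 and 1532 in GFP-positive and 1687 and 1804 in GFP-negative splenic cells (−0.20 ± 0.075, adjusted p = 0.038), a call lost without either spleen GFP-positive array and a direction that turned on the deposited scale (0.17) and after the median shift (0.32).

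Several genes have more than 1 tested probe set, and in the spleen these did not always move alike. Each gene above is represented by its tested probe set with the highest mean. The 24 genes with several had 45 other tested probe sets, of which 24 were called higher in GFP-positive splenic cells by more than the chosen one and 9 by less, 6 were called lower and 6 were not called. Over all 92 tested probe sets, 77 rose and 8 fell in GFP-positive splenic cells, against 44.9% and 33.3% of the 27022 probe sets tested. The 6 that fell beside a rising gene belonged to Psmg3 (−2.72), Psme4 (−2.37), Psmd9 (−2.13), Psma3 (−1.12), Psmd4 (−0.71) and Psmg2 (−0.67). For Psmg3 that probe set read 83.7 and 98.1 in GFP-positive splenic cells, against 560 and 633 in GFP-negative splenic cells. The rise of Psmd7 also rests on 1 of its 3 tested probe sets, since the other 2 gave 0.059 and −0.26 and were not called, and their mean with it was 0.67. The other way round, a further probe set of Psmg2 rose by 3.81, far more than the chosen one. All 4 tested probe sets of Psmf1 rose, by 1.65 to 2.14, and both of Psmc3ip, by 2.58 and 2.83. What parts of the transcripts these probe sets read is not given in the files used here.

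**Figure D3:**
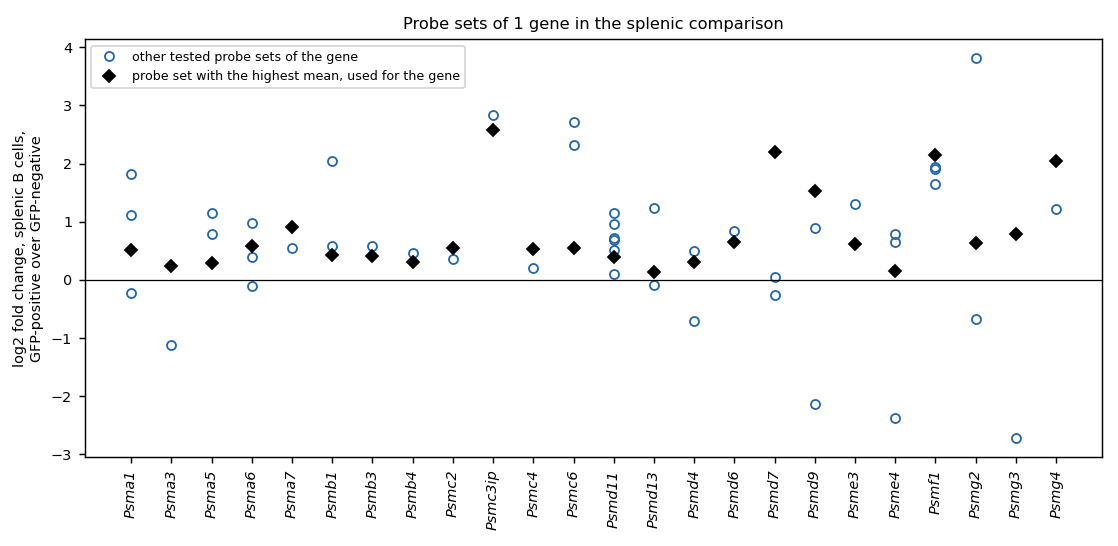
Log2 fold change, GFP-positive over GFP-negative splenic cells (y axis), of every tested probe set of the 24 genes with several (x axis); diamonds are the probe set with the highest mean, used for the gene, and open circles are the 45 others. The 4 probe sets of Psmf1 lie close together near 2, whereas Psmg3, Psme4 and Psmd9 each have a probe set below −2.

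The difference between the 2 GFP effects was tested directly as an interaction in the same fit. Taken as the BCR-ABL1 effect minus the splenic effect, it was below 0 for 43 of 47 genes and above 0 for 0 (adjusted p under 0.05), where 41% of all genes tested were called lower and 28% higher. The median was −0.58, against −0.18 over all genes, and 8 genes were called at 2-fold or more, against 36.6% of all genes. By class, all 7 alpha, all 7 constitutive beta, all 4 immunoproteasome and all 6 ATPase genes passed, with 10 of 11 non-ATPases, 6 of 7 chaperones and 2 of 3 other activators and inhibitor. The size was largest for Psmc3ip (−2.58 ± 0.18), Psmd7 (−2.25 ± 0.14) and Psmf1 (−2.16 ± 0.20), and for the immunoproteasome it ran from −0.16 ± 0.052 for Psme1 to −0.74 ± 0.087 for Psmb9. Psma5 passed at the very threshold (−0.34, adjusted p = 0.050), and its call was lost under 12 of 22 alternatives. The other bright Psma5 probe set gave −0.77 (adjusted p = 4.1e-05, limma fit of all tested probe sets). The calls of Psme1, Psmd4, Psma3 and Psmb4 were lost or turned under 10, 8, 5 and 2 of the 22. For Psme1, Psmd4 and Psma3 these included leaving out spleen GFP-negative replicate 1 and leaving out BCR-ABL1 GFP-positive replicate 1. Averaging their probe sets lost the call of Psmd9 and turned that of Psmg3 (1.038). Psmd10, Psmd13, Psme4 and Psme3ip1 did not pass. Since the BCR-ABL1 effects lie near 0, this difference is nearly the splenic effect with its sign turned, and it rests on the same spleen GFP-negative arrays with their myeloid and T cell signal, whose part was not tested.

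Between the GFP-positive groups, which lack high myeloid and T cell signal, proteasome genes were modestly lower in BCR-ABL1 cells than in splenic cells. These groups did differ in the summed signal of 5 dendritic cell markers, 290 to 299 in BCR-ABL1 and 2373 to 2445 in splenic arrays. Flt3 made up most of the splenic sum (1914 and 1884), and the part of this difference was not tested. Of the 47 genes 26 fell and 0 rose (limma, adjusted p under 0.05), where 25.5% of all genes fell and 24.8% rose. The median was −0.17, against −0.046 over all genes, and 0 genes were called at 2-fold or more, against 15.5% of all genes. By class, 4 of 7 alpha, 4 of 7 constitutive beta, 2 of 6 ATPase, 7 of 11 non-ATPase, 3 of 7 chaperone and 2 of 3 other activator and inhibitor genes fell, and all 4 immunoproteasome genes did. The count was sensitive: it was 14 without BCR-ABL1 GFP-positive replicate 1, 13 without spleen GFP-positive replicate 2, 17 with no filter and 13 with a variance prior without trend. Without both spleen GFP-negative arrays it was 25. The genes that passed in every alternative other than the 2-fold threshold were 9 of the 26: Psma4, Psmb2, Psmb4, Psmb9, Psmb10, Psmc5, Psmd8, Psmd11 and Psme4.

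The lid subunit Psmd11, which helps join lid and base, had the largest of these differences, with 2977 and 2928 in BCR-ABL1 GFP-positive cells, against 4978 and 5062 in GFP-positive splenic cells (−0.77 ± 0.073, adjusted p = 4.6e-05). Psmb9 followed, with 4971 and 5191 in BCR-ABL1 GFP-positive cells against 7526 and 8259 in GFP-positive splenic cells (−0.63 ± 0.062, adjusted p = 5.0e-05). Next came Psmd9 (−0.62 ± 0.090), Psmg4 (−0.53 ± 0.12), Psmd8 (−0.48 ± 0.049), Psmb2 (−0.44 ± 0.088) and Psmf1 (−0.41 ± 0.14), all called lower in BCR-ABL1. Of these calls, those of Psmd9, Psmg4 and Psmf1 were lost or turned under some alternatives. Psmb10 was at 4772 and 5032 against 6216 and 6529.5 in the same groups (−0.38 ± 0.049, adjusted p = 0.00027). None of these arrays overlapped between the groups. Psmb8 (−0.17 ± 0.054, adjusted p = 0.030) and Psme1 (−0.10 ± 0.037, adjusted p = 0.044) lay close to the threshold and were lost under 9 and 13 of 24 alternatives. Of the constitutive partners, Psmb6 (−0.17 ± 0.042) and Psmb7 (−0.28 ± 0.095) were called, and Psmb5 at 0.011 ± 0.048 was not. The call of Psmb6 was lost under 3 of the 24 alternatives, among these without BCR-ABL1 GFP-positive replicate 1 and without spleen GFP-positive replicate 2, and that of Psmb7 under 12, with every array but BCR-ABL1 GFP-positive replicate 1 left out in turn. As log2 differences on the same array, Psmb9 minus Psmb6 was −0.75 and −0.73 in BCR-ABL1 GFP-positive cells, against −0.29 and −0.26 in GFP-positive splenic cells. That is a shift of −0.47 with an SD of 0.055, while Psmb8 minus Psmb5 shifted by −0.18 (SD 0.040) and Psmb10 minus Psmb7 by −0.097 (SD 0.17).

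Between the GFP-negative groups the direction was mostly the other one. In BCR-ABL1 cells 34 of 47 genes were higher and 2 lower than in GFP-negative splenic cells, where 45.7% of all genes were called higher and 32.8% lower. The counts higher and lower were 43 and 0 on the deposited scale, 46 and 0 after the median shift and 30 and 6 with equal trimmed means. The median was 0.37, against 0.16 over all genes, and 7 genes were called at 2-fold or more, against 38.7% of all genes. Psmd7 (2.00 ± 0.097), Psmf1 (1.75 ± 0.14), Psmg1 (1.72 ± 0.080) and Psmg4 (1.51 ± 0.12) again showed large differences, and these comparisons share the spleen GFP-negative arrays with the splenic GFP comparison. All 6 ATPases were higher, by 0.35 to 0.56, and 6 of 7 constitutive beta genes were. Of the 4 immunoproteasome genes Psmb8 passed (0.23 ± 0.054, adjusted p = 0.0039), with Psmb9 at 0.11 ± 0.062, Psme1 at 0.052 ± 0.037 and Psmb10 at −0.031 ± 0.049. These calls depended on the scale: that of Psmb8 was lost with equal trimmed means (0.057, adjusted p = 0.30), while Psmb9 passed on the deposited scale and after the median shift. Psmb10 passed above 0 on those scales and below 0 with equal trimmed means, and Psme1 passed above 0 after the median shift and below 0 with equal trimmed means. The log2 differences between partners on the same array were not tested here either. Psmb8 minus Psmb5 shifted by −0.25 (SD 0.040), Psmb9 minus Psmb6 by −0.17 (SD 0.055) and Psmb10 minus Psmb7 by −0.40 (SD 0.17). Psmd11, with 2826 and 3131 in BCR-ABL1 GFP-negative against 3581 and 4093 in GFP-negative splenic cells, was lower (−0.36 ± 0.073, adjusted p = 0.0018), but the call was lost on the deposited scale and after the median shift, and the mean of its probe sets gave 0.060. Psme4 was the other lower gene (−0.12 ± 0.047, adjusted p = 0.040), and its direction turned on the deposited scale (0.12).

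**Figure D4:**
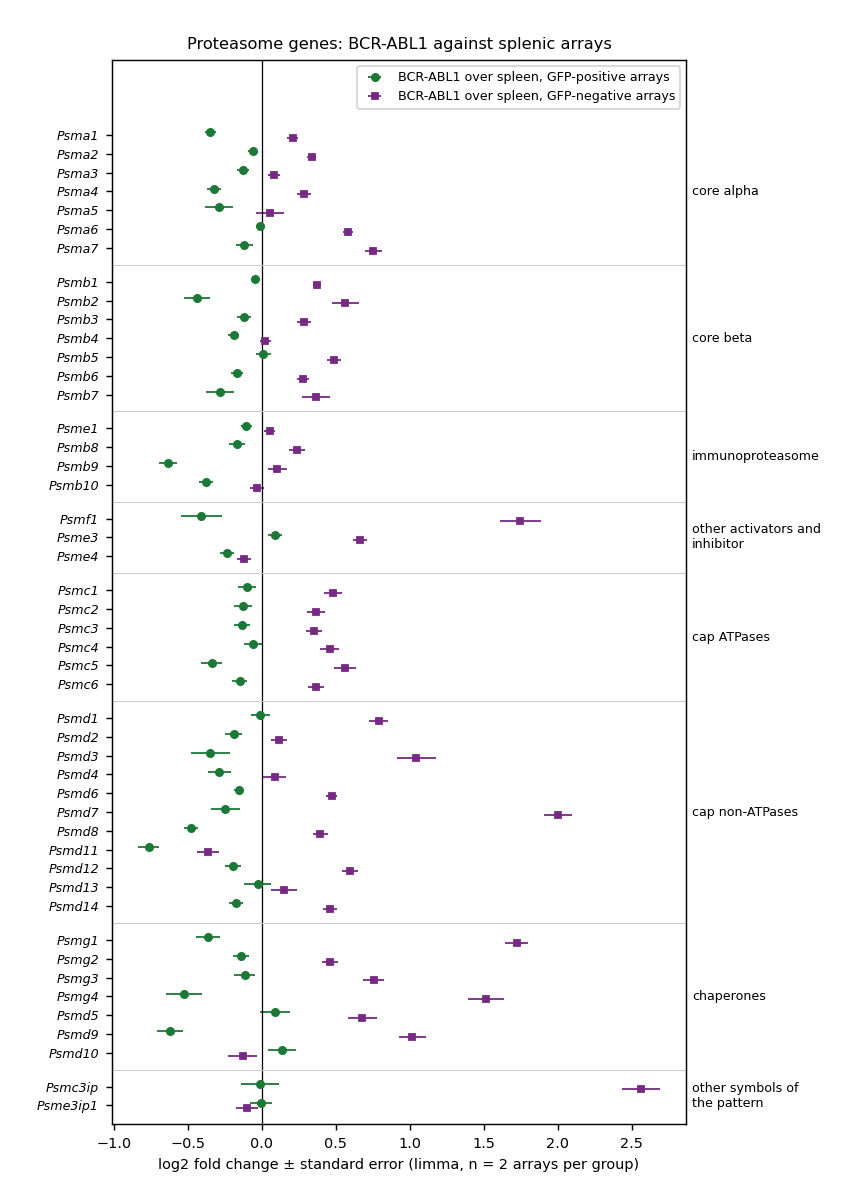
Log2 fold change, BCR-ABL1 over spleen, for each of the 47 tested genes (rows, grouped by role); circles are GFP-positive arrays, squares are GFP-negative arrays, bars are the standard errors of the limma fit with 2 arrays per group. The circles reach down to −0.77 for Psmd11 and the squares up to 2.56 for Psmc3ip; Psmd11 and Psme4 were called below 0 in both.

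**Figure D5:**
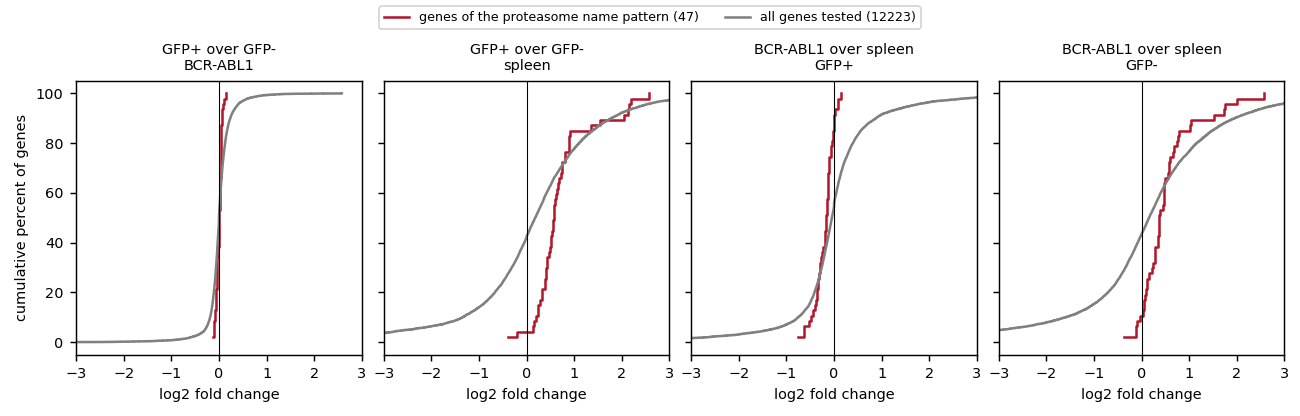
Cumulative percent of genes (y axis) against the log2 fold change (x axis, shown between −3 and 3) for the 47 tested genes of the name pattern and all 12223 tested genes, in each of the 4 comparisons. In the splenic GFP comparison the proteasome curve crosses 50% at 0.57, against 0.18 for all genes, and in the BCR-ABL1 GFP comparison all its values lie between −0.12 and 0.14.

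Genes that work with the proteasome were read from a list of 33 partners and regulators, of which 22 could be tested. In BCR-ABL1 cells 0 rose and 1 fell with GFP, where 5.37% of all genes were called. That gene was Ecpas, which encodes an adaptor that tethers the proteasome to other compartments, with 3265 and 3550.3 in BCR-ABL1 GFP-positive cells, against 4398 and 4559 in BCR-ABL1 GFP-negative cells. Its log2 fold change of −0.40 ± 0.067 passed with an adjusted p of 0.013, and the adjusted p ran from 0.0014 to 0.13 over the alternatives. The call was lost in 8 of 24 of them, among these without BCR-ABL1 GFP-positive replicate 1 and without any 1 of the 4 GFP-negative arrays. In the spleen 13 of the 22 rose and 4 fell in GFP-positive cells, where 45.7% of all genes tested rose and 31.4% fell. The deubiquitinase Usp14, which trims ubiquitin chains on the cap, had 1792 and 1507 in GFP-positive splenic cells, against 200.3 and 182.1 in GFP-negative splenic cells (3.11 ± 0.11, adjusted p = 6.5e-08), which became 1.35 with the mean of its probe sets. Uchl5, the other cysteine deubiquitinase of the cap, followed at 1.35 ± 0.055, and the proteasome-bound thioredoxin Txnl1 at 0.88 ± 0.045. Nfe2l2, the stress regulator that binds antioxidant response elements, fell, with 1403 and 1352 in GFP-positive and 3042 and 2859 in GFP-negative splenic cells (−1.10 ± 0.069, adjusted p = 1.5e-06), and the mean of its probe sets gave −0.24 in place of −1.10. The myeloid and T cell signal of the spleen GFP-negative arrays applies to these values too, and its part was not tested.

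Between GFP-positive cells of both sources 7 of the 22 partners were higher and 4 lower in BCR-ABL1, where 24.8% of all genes tested were higher and 25.5% lower. Ngly1, the glycanase that activates Nfe2l1, had 3246 and 3080.4 in BCR-ABL1 GFP-positive cells, against 1169 and 1175 in GFP-positive splenic cells (1.43 ± 0.059, adjusted p = 2.6e-07). Nfe2l1 itself, the factor known to raise proteasome genes when proteasome activity falls, had 1625 and 1601 in BCR-ABL1 GFP-positive against 2727 and 2760.3 in GFP-positive splenic cells (−0.77 ± 0.054, adjusted p = 7.0e-06). Nfe2l2 was higher in BCR-ABL1 (1.04 ± 0.069), and Akirin2, which carries proteasomes into the nucleus, was lower (−0.32 ± 0.056).

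Of 14 listed genes of class I peptide presentation, the pathway fed by the immunoproteasome, 13 could be tested. Between the GFP-positive groups 9 of the 13 were lower and 0 higher in BCR-ABL1 cells, where 25.5% of all genes were lower. Tapbpl, a peptide editor, had 546.2 and 496.4 in BCR-ABL1 GFP-positive cells, against 1977 and 2120.1 in GFP-positive splenic cells (−1.98 ± 0.10, adjusted p = 1.2e-06). Irf1, an interferon-induced factor known to raise the inducible subunits, had 2211 and 2444 in BCR-ABL1 GFP-positive against 4497 and 4824 in GFP-positive splenic cells (0.499-fold, adjusted p = 9.6e-06). Tap1, a subunit of the peptide transporter and the neighbour of Psmb9 in the MHC region, had 3386 and 3892 against 6155 and 7083 in the same groups (−0.86 ± 0.088, adjusted p = 6.6e-05). In GFP-positive splenic cells, set against GFP-negative ones, 5 of the 13 rose and 5 fell, where 45.7% of all genes tested rose and 31.4% fell. Erap1 rose most (2.09 ± 0.23), and B2m, the light chain of class I, fell by 0.29. In BCR-ABL1 cells 1 of 13 was called with GFP, where 5.37% of all genes tested were. That gene was Irf1, at 2211 and 2444 in GFP-positive and 1853 and 1845 in GFP-negative cells (0.33 ± 0.075, adjusted p = 0.044). That call was lost in 15 of 24 alternatives, among these without any 1 of the 8 arrays, with adjusted p-values of 0.0044 to 0.33.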

How the data were processed

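The 8 arrays hold 1 signal intensity per probe set on a linear scale, as the authors deposited them; the submitters' processing notes name GCOS 1.3, and how probes were summarised and arrays scaled is not given in the sources used here. After 64 control probe sets were left out, arrays were quantile normalized, values under 32 were set to 32 and log2 was taken. Probe sets whose mean log2 value lay under the 40th percentile (5.67) were not tested, and a gene was represented by its tested probe set with the highest mean, a choice kept under every alternative but the one that averaged them. Symbols came from the platform annotation, and the Entrez IDs of all 103 member probe sets matched, with 0 symbols changed. One limma fit of all 8 arrays (version 3.58.1, R 4.3.3) had a mean per group, 4 residual degrees of freedom and a variance prior that followed the mean signal. Within each comparison the Benjamini-Hochberg adjustment covered the 12223 genes, and adjusted p-values under 0.05 were called; an exact permutation of 2 arrays against 2 cannot go below 0.333. The probe-set counts come from a second fit of all 27022 tested probe sets. The procedure was tested on simulated data. At a true log2 change of 0.5 it recovered 45 of 100 changed genes in the BCR-ABL1 GFP comparison and 28 of 100 in the splenic one. At a true change of 1.0 it recovered 82 and 75 of 100. Both runs drew on the same spread per gene, so the gaps between them do not describe the 2 comparisons. Few of the 12223 genes were changed, whereas in the splenic arrays 45.7% of all genes rose and 31.4% fell. The median standard error was 0.117 over all genes and 0.057 over the 47 members, so these rates do not carry over to the members. The number of arrays limits the precision. Every gene of the name pattern could be named, and at most 6 genes a comparison of the lists of partners and of class I presentation that passed, largest change first. The members, lists and tests were chosen with earlier results of these data known. No coordinates of the files are given, since they name no genome build; the promoters are RefSeq's (GRCm38.p6), and their motifs were sought on both strands. The reporter gene itself is not reported here.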

Additional observations from a re-analysis of the deposited data

Results flagged for a closer look

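The difference between the GFP effects, BCR-ABL1 minus spleen, passed the interaction test for 43 of the 47 proteasome genes, all below 0, where 41% of all genes tested were called lower. The 5 genes named with a splenic effect above 2 on the log2 scale carried the largest values. They were Psmc3ip (−2.577), Psmf1 (−2.157), Psmd7 (−2.25), Psmg1 (−2.083) and Psmg4 (−2.041). In each of them the 2 BCR-ABL1 groups overlapped, and both spleen GFP-negative arrays lay below the other 6. The value of Psmd7 rests on its chosen probe set, since its other tested probe sets were not called in the splenic comparison.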

How the results depend on the processing

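The count of called proteasome genes was 0 in every alternative for GFP in BCR-ABL1 cells, where leaving out 1 array gave 0 to 0. For GFP in splenic cells it stayed within 40 to 47 under all alternatives but the 2-fold threshold, and leaving out 1 array gave 44 to 46; of the 46 calls, 37 were kept in every alternative other than that threshold, which is left out of the kept counts below too. For the difference of the effects, leaving out 1 array gave 39 to 42 and 36 of 43 calls were kept. For BCR-ABL1 over spleen the range was 13 to 25 in GFP-positive arrays, where 9 of 26 calls were kept, and 35 to 36 in GFP-negative arrays, where 27 of 36 were kept. Requiring 2-fold as well left 7, 8, 0 and 7 genes in the splenic, difference, GFP-positive and GFP-negative comparisons. In GFP-positive arrays no filter gave 17 and eBayes without trend 13. Besides these, 3 scalings, a floor of 16 or 64, adding 32 in place of a floor, a 60th percentile filter, robust eBayes, all tested probe sets, array weights and the 4 compared arrays alone were tried, the last not for the difference. Leaving out both spleen GFP-negative arrays, chosen after seeing the data, gave 0 for BCR-ABL1 cells and 25 for GFP-positive arrays, and normalizing the 4 spleen arrays alone, likewise chosen later, gave 44. The cause of each change here and below was not tested.

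Arrays share replicate numbers, which the labels do not tie to a shared mouse or day. With the number as a replicate block the counts were 0, 47, 44, 32 and 40 for the 5 comparisons in the order above. Same-numbered arrays' deviations correlated across 12223 genes at 0.129 and 0.274 between GFP fractions of BCR-ABL1 cells and of spleen, and at 0.286 and 0.16 between sources within GFP-positive and GFP-negative arrays.

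Of all calls over the 12223 genes, 59.3% were higher in GFP-positive splenic cells, against 75.1% after the median shift; for the difference 40.6% were higher, against 25.0% on that scale, and for BCR-ABL1 over spleen in GFP-negative arrays 58.2%, against 68.5% on the deposited scale and 72.8% after the median shift.

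Directions turned for these values. For GFP in splenic cells, Psmd10 gave 0.1154 on the deposited scale and 0.2744 after the median shift, Psme3ip1 0.1659 and 0.3248 on the same scales, Psme1 −0.1064 with equal trimmed means, and the mean of probe sets gave −0.9595 for Psmg3, −0.4369 for Psma3 and −0.1963 for Psme4. For the difference, the median shift gave −0.3663 for Psmd10 and −0.403 for Psme3ip1, equal trimmed means 0.1279 for Psme1, and the mean of probe sets 1.038 for Psmg3 and 0.4974 for Psma3. In GFP-positive arrays the mean of probe sets gave 0.3394 for Psmd13 and 0.3258 for Psmf1. In GFP-negative arrays it gave 0.06025 for Psmd11, −0.2445 for Psmd4, −0.9633 for Psmg3 and −0.7312 for Psma3; equal trimmed means gave −0.1006 for Psma3, −0.1269 for Psmb4 and −0.2451 for Psme1; and the deposited scale and median shift gave 0.366 and 0.4781 for Psmd10, 0.1138 and 0.2258 for Psmb10, 0.1175 and 0.2295 for Psme4 and 0.2516 and 0.3637 for Psme3ip1.

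For the partner list, GFP in BCR-ABL1 cells gave 0 with no filter, with eBayes without trend, with the compared arrays alone and at 2-fold, and 0 to 1 without 1 array. At 2-fold 3, 2 and 2 genes passed in the splenic, GFP-positive and GFP-negative comparisons, and leaving out 1 array gave 15 to 18, 6 to 12 and 15 to 17. For class I presentation, GFP in BCR-ABL1 cells gave 3 with array weights, 2 with the replicate block and 0 with equal trimmed means, a floor of 64, no filter, eBayes without trend, all tested probe sets, the compared arrays alone, without both spleen GFP-negative arrays and without any 1 array. At 2-fold 1, 2 and 3 of its genes passed in the splenic, GFP-positive and GFP-negative comparisons, and leaving out 1 array gave 7 to 10, 8 to 9 and 11 to 12. Without 1 array, Psmb8 minus Psmb5 ran from −0.0837 to 0.01621 between splenic fractions (above 0 without spleen GFP-positive replicate 1) and from −0.2317 to −0.1338 between GFP-positive groups, where Psmb10 minus Psmb7 ran from −0.2699 to 0.07441 (above 0 without BCR-ABL1 GFP-positive replicate 1). Psmb9 minus Psmb6 differed by 0.4037 between splenic fractions on the deposited scale, after the median shift and with equal trimmed means.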
